A study of Homo sapiens with 15 samples.

Results

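The effect of the hairpin shPDK1#2 on gene expression was followed in tumor spheres of 143B, an established human osteosarcoma cell line. The comparison took 3 libraries of shPDK1#2 spheres and 3 libraries of shCtrl spheres, 6 of the 15 libraries of the series, and all 14597 genes that passed the filter on low counts. The other libraries were 3 of spheres with a second hairpin against the same gene (shPDK1#1), 3 of uninfected spheres (osteosarcoma stem cells, OSC) and 3 of adherent cells (non-OSC). All groups came from this line alone, and neither selection of infected cells nor cloning is stated. The OSC and all hairpin groups were grown in serum-free tumorsphere medium with EGF and basic FGF, and the non-OSC group in medium with serum. A short hairpin RNA (shRNA) directs the cell to degrade the matching mRNA. Here the hairpins were delivered by lentivirus produced in HEK293T cells, and shCtrl is the control group as labelled, with no vector named in the labels. The study lists a pLKO.1 puro plasmid and a control vector. It does not say which of them shCtrl carried, and it names no control hairpin. Labels gave a replicate number to each library but did not say whether replicates were separate infections or separate cultures, so the p-values measure the spread between these libraries, which may be technical.

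PDK1 (pyruvate dehydrogenase kinase 1) sits in the mitochondrial matrix and phosphorylates the E1 subunit of the pyruvate dehydrogenase (PDH) complex, which shuts the complex off. With PDH off, less pyruvate becomes acetyl-CoA for the TCA cycle and more becomes lactate. The gene is a known target of the hypoxia factor HIF-1, and the kinase is counted among the enzymes that favor aerobic glycolysis in tumors.

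Total counts per library lay between 8073103 and 9874360 in shCtrl and between 9625952 and 10768811 in shPDK1#2. The spread between replicates exceeded sampling noise, with a chi-square of 1.93 to 2.8 per degree of freedom in shPDK1#2 and 1.98 to 2.09 in shCtrl, so every library counted as 1. In a principal component analysis of the 6 libraries, the first component held 42.2% of the variance and separated the groups. The cells matched their label in part. VIM, COL1A1 and SPARC, expressed by mesenchymal and bone-forming cells, were high, and RUNX2 was present. But SP7, the osteoblast factor osterix, had at most 1 count in any of the 6 libraries. IBSP, which the study used as a marker of malignant cells in tumors, had 0. Levels are given as CPM, which are counts scaled to a common library size. Lymphoid markers summed to at most 0.124 CPM per library. Epithelial markers were present, with a sum of 335 to 356 CPM in shCtrl and 439 to 474 CPM with shPDK1#2, KRT8 and KRT18 among them, while CDH1 was at 0 throughout.

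In shPDK1#2 spheres the targeted mRNA fell below the control level in every library. PDK1 (ENSG00000152256.14, GRCh38 chromosome 2, 172555373 to 172608669) had 46.7, 44.7 and 44.4 CPM in the shCtrl libraries and 18.3, 21.5 and 19.6 CPM in the shPDK1#2 libraries. The groups did not overlap. The mean was 43.7% of shCtrl, or -1.19 on the log2 scale (standard error 0.0863, adjusted p = 5.68e-11). Every adjusted p given here comes from the quasi-likelihood test of edgeR, adjusted after Benjamini and Hochberg. The two-sided exact permutation test of 3 libraries against 3 gave p = 0.1, the smallest that this design allows. An antisense gene covers 3% of the PDK1 exons, and whether the counting used strand is not given in the sources used here.

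Around PDK1, the PDH complex and its regulators had calls at a share near that of all genes. Of 13 tested genes of this list, 2 rose and 2 fell, PDK1 being one of the falls. This is 15.4% in each direction, beside 11.9% risen and 14.2% fallen over all tested genes. PDHA1, the E1 alpha subunit that PDK1 phosphorylates, rose from 89.4, 92.5 and 91.9 CPM to 109, 111 and 112 CPM, a change of 0.28 on the log2 scale (standard error 0.0551, adjusted p = 0.00036). Antisense genes overlap 19.3% of its exons. DLAT, the E2 subunit, rose by 0.20 on the log2 scale (adjusted p = 0.0134); this call was lost without shCtrl replicate 2 or 3 or shPDK1#2 replicate 1, at 0.18, 0.18 and 0.19. PDP1, the phosphatase that switches the complex back on, fell by 0.25 (adjusted p = 0.00695). The sister kinases did not pass the test. PDK3 had 83.3, 84.6 and 79 CPM in shCtrl and 79.9, 79.6 and 78.1 CPM with shPDK1#2 (log2 fold change -0.06, adjusted p = 0.561). PDK2 had a log2 fold change of -0.08 (adjusted p = 0.788), and PDK4 had too few counts to be tested, at 2 to 11 per shCtrl library and 2 to 15 per shPDK1#2 library. MPC1, a subunit of the carrier that brings pyruvate into the mitochondrion, had overlapping groups and a log2 fold change of 0.34 (adjusted p = 0.0594), and passed the threshold in 5 alternatives, without shCtrl replicate 2 (0.53) or shPDK1#2 replicate 1 (0.45) among them.

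Across the transcriptome, 3810 genes passed an adjusted p of 0.05, of which 1739 rose and 2071 fell with shPDK1#2. These calls are 11.9% of the tested genes for rises and 14.2% for falls, and both shares serve as the background for the gene lists that follow. The groups did not overlap in 39.5% of all tested genes. Most called changes were small: the median size of the log2 fold change among called genes was 0.34, and 2745 of the 3810 stayed under 0.5. By more than 1 on the log2 scale, 141 genes rose and 164 fell. Over all genes the median log2 fold change was 0.01. Called falls were more frequent among long transcripts, 23.4% of the 2920 genes with the longest transcripts against 7.71% of the 2920 with the shortest, while called rises made up 10.4% and 12.8% of the same genes; the part of transcript length in the lists was not tested.

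Ranked among called genes with separate groups, a mean level of 10 CPM or more and an assigned symbol, the 8 largest falls left between 27.3% and 33.5% of the shCtrl level. ATF3 (chromosome 1, 212565334 to 212620777), a stress-induced transcription factor of the ATF/CREB family, had 31.7, 31.5 and 31.9 CPM in shCtrl and 9.41, 7.68 and 8.85 CPM with shPDK1#2, a change of -1.87 on the log2 scale (standard error 0.114, adjusted p = 2.21e-12). It was the largest fall by this rule, which leaves out all 11 called genes that fell by 2 or more on the log2 scale, and its shCtrl libraries lay close together. DNER, a neuronal ligand of the Notch pathway (chromosome 2, 229357629 to 229714555), went from 49.9, 50.6 and 43.9 CPM to 14.5, 13.3 and 12.3 CPM (log2 fold change -1.84). BPGM (chromosome 7, 134646811 to 134679816), which makes 2,3-bisphosphoglycerate in a side branch of glycolysis, went from 62.4, 63.3 and 67.2 CPM to 19.6, 15.6 and 19.1 CPM (log2 fold change -1.83, adjusted p = 1.23e-14). KLF2, a Krüppel-like transcription factor, went from 74.1, 78.7 and 81.6 CPM to 25.2, 25.5 and 24.3 CPM. CREB5, another factor of the ATF/CREB family, and SEMA5A, a semaphorin that guides cell migration, both had a log2 fold change of -1.63. RGS16, which shortens G protein signaling, had -1.59. INHBA, which encodes the subunit of activin A, had 125, 129 and 114 CPM in shCtrl and 37.9, 44.1 and 41.1 CPM with shPDK1#2 (log2 fold change -1.58, adjusted p = 2.07e-15). For these 8 genes no shPDK1#2 library reached the lowest shCtrl library, as the rule required.

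By the same rule the 8 largest rises were led by a collagen. Of all called genes 24 rose by 2 or more on the log2 scale, and the rule leaves out all of them but this one. COL3A1 (chromosome 2, 188974373 to 189012746), the fibrillar collagen III of soft tissue, had 4.6, 4.12 and 5.84 CPM in shCtrl and 90.4, 82.6 and 86.2 CPM with shPDK1#2, a ratio of 17.8 or 4.17 on the log2 scale (standard error 0.111, adjusted p = 1.95e-19). No other of the 8 reached a ratio of 4. PCDH10, a cell adhesion protein of the protocadherin family, went from 3.73, 5.22 and 3.6 CPM to 15.4, 16.8 and 16 CPM (log2 fold change 1.92). UNC5C, a receptor for the guidance factor netrin, had a log2 fold change of 1.74. COL4A6, a basement membrane collagen, went from 24.4, 23.9 and 25 CPM to 70.6, 71.8 and 69 CPM (log2 fold change 1.53). MTUS1, a microtubule-associated protein, had 1.46, and A2M, a broad protease inhibitor of plasma and matrix, had 1.42. IGF2, a growth factor that signals through the IGF1 receptor, had 23.2, 23.3 and 20.7 CPM in shCtrl and 57.2, 57.2 and 62 CPM with shPDK1#2 (log2 fold change 1.39); 38.8% of its sequence is shared with an overlapping annotated gene, so the division of reads between them is uncertain. SLC8A1, the sodium-calcium exchanger, had 1.32.

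**Figure D1:**
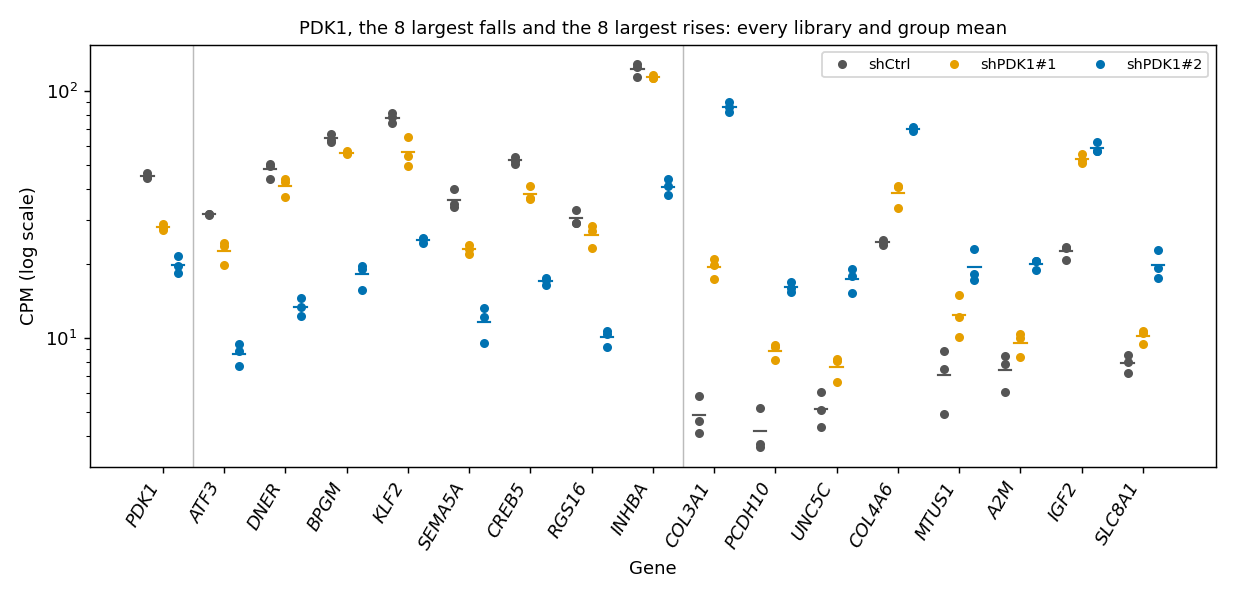
CPM (log axis) of PDK1, the 8 largest falls and the 8 largest rises in each of 9 libraries; points are libraries, short lines are group means, and colors are shCtrl, shPDK1#1 and shPDK1#2. The shPDK1#2 points of the 8 falls lie below every shCtrl point, COL3A1 has the widest gap, and shPDK1#1 means lie between the other groups for these genes.

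AP-1 is a dimer of FOS, JUN, ATF and MAF family proteins that binds DNA through a basic leucine zipper. Many of its genes are immediate early genes, which means that growth factors, stress or calcium switch them on within minutes through factors already present in the cell. MAP kinases drive this response, and dual-specificity phosphatases (DUSP) and Sprouty proteins limit it. To show where such control regions lie, the RefSeq promoter windows (GRCh38.p14, 250 bases before to 50 bases after the start) of 6 genes that fell, chosen because they hold such letters, are given 5′ to 3′ in the sense of the gene. Capitals mark a cAMP response element (CRE, TGACGTCA), an AP-1 site (TGANTCA) or a TATA box (TATAAA).

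FOSB, chr19:45467746-45468045, plus strand: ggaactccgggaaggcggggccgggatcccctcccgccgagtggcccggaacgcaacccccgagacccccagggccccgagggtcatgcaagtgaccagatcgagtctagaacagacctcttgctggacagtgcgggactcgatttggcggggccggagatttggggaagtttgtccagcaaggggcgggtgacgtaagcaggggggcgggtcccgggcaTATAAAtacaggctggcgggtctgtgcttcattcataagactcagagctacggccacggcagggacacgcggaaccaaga

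FOS, chr14:75278578-75278877, plus strand: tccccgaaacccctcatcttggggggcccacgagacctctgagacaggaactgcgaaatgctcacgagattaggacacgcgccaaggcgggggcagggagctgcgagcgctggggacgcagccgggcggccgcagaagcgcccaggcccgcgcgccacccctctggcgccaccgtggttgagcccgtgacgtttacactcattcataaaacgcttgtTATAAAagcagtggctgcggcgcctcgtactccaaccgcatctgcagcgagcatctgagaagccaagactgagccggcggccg

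JUNB, chr19:12791236-12791535, plus strand: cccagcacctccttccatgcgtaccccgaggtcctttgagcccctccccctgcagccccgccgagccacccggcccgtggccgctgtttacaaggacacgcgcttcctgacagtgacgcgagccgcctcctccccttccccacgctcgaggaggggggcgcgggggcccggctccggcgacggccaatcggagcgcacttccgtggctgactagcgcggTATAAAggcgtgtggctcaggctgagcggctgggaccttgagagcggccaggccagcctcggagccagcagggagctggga

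DUSP1, chr5:172771146-172771445, minus strand: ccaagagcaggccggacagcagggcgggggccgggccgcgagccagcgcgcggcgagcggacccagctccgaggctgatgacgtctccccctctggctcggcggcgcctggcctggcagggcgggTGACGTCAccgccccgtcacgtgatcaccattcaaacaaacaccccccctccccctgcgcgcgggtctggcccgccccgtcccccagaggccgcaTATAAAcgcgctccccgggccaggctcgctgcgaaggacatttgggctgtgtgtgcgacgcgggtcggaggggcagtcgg

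DUSP8, chr11:1572222-1572521, minus strand: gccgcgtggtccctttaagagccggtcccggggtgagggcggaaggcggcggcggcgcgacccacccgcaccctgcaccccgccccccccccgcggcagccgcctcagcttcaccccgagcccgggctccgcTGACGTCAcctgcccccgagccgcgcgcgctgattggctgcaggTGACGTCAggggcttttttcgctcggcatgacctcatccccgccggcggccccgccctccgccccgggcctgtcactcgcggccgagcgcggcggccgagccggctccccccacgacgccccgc

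CXCL8, chr4:73740319-73740618, plus strand: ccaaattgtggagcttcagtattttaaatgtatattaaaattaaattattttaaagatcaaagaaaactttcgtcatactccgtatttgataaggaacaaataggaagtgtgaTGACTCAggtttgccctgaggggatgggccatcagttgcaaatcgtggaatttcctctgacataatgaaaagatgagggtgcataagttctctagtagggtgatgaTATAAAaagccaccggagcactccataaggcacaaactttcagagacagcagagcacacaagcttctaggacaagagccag

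In these windows the TATA box begins 30 bases before the start in FOSB and DUSP1, 31 before it in JUNB and CXCL8 and 33 before it in FOS. DUSP8 has none but holds 2 CRE, beginning at 118 and 74 bases before the start, and DUSP1 holds 1 at 125. CXCL8 holds an AP-1 site at 137 bases before the start. The windows of ATF3, BPGM, EGR1, IFIT1, JUN, KLF2 and MAFG, which also fell, hold none of these letters. Only 1 start per gene was searched, which for ATF3 lies near the upstream end of its span. Promoters at other starts of a gene are not covered. Of the 8 windows found for fallen AP-1 and ATF genes, 3 hold a TATA box, 2 a CRE and 0 an AP-1 site, and of 14 windows of immediate early genes 1 holds a TATA box and 0 a CRE or an AP-1 site. A window was found for 10884 of the tested genes, and the motifs were searched on both strands. A TATA box was present in 5.37% of all windows, in 17.9% of the 106 windows of genes that fell by more than 1 and in 11.1% of the 81 windows of genes that rose by more than 1. An AP-1 site was in 4.45% of all windows, 8.49% of the same falls and 7.41% of the same rises. For the CRE the shares were 3.36%, 4.72% and 2.47%. Over all called genes the shares lay closer to those of all windows: among 1622 falls and 1352 rises a TATA box was in 6.84% and 5.99%, an AP-1 site in 4.99% and 3.11%, and a CRE in 3.02% and 3.55%, so that the order of falls and rises for the CRE turned. The E-box CACGTG was in 10% of all windows, 4.72% of falls and 11.1% of rises, and the hypoxia core ACGTG, which the E-box contains, in 26.7%, 15.1% and 24.7%. The C/EBP-ATF element TGATGNAAT was in 0.423% of all windows, 1 window of the falls and 1 of the rises. Among all called falls and rises the E-box was in 8.45% and 11.4% and the hypoxia core in 22.9% and 29.4%. None of these shares was tested. A match describes the letters of the window, not binding.

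Of the 13 tested genes of the AP-1 and ATF family list, 10 fell and 0 rose, against a background of 14.2% and 11.9%. The median log2 fold change was -0.69. ATF3 is the only ATF gene of this list, so the counts do not describe the wider ATF family. The list was chosen with earlier results of these data known. FOSB had 49.4, 46.9 and 51.7 CPM in shCtrl and 15.2, 17.9 and 18.2 CPM with shPDK1#2, a change of -1.53 on the log2 scale (standard error 0.0962, adjusted p = 4.01e-12). FOS went from 51.2, 56.8 and 53.9 CPM to 21, 23 and 21.8 CPM, a log2 fold change of -1.30 (adjusted p = 3.1e-12). FOS proteins bind DNA only together with a partner such as JUN. The remaining members are given to complete the list and were named after their values were seen. JUND had a log2 fold change of -1.12, JUN of -0.91 and JUNB of -0.84. JUN, the classical partner of FOS, went from 768, 753 and 767 CPM to 387, 432 and 397 CPM. The small MAF factors, which pair with other leucine zipper factors at antioxidant and stress elements, followed with -0.69 for MAFK, -0.65 for MAFF and -0.60 for MAFG. FOSL1 had -0.39. FOSL2 (-0.13), JDP2 (-0.10) and BATF3 (0.00) did not pass the test, and their groups overlapped. In every alternative fit 10 or 11 members fell and 0 rose. Antisense genes overlap 14.2% of the exons of JUNB and 18.1% of those of MAFK.

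**Figure D2:**
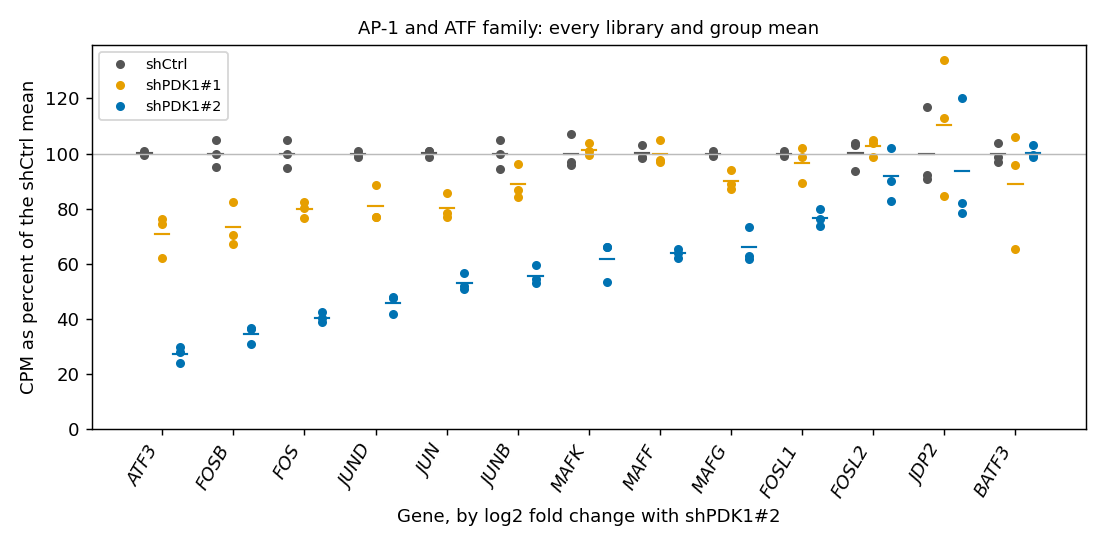
CPM of the 13 tested AP-1 and ATF family genes in each of 9 libraries, as percent of the shCtrl mean of the same gene; points are libraries, short lines group means, and genes are ordered by log2 fold change with shPDK1#2. The shPDK1#2 libraries of ATF3 lie between 24.2% and 29.7% of the shCtrl mean, and the 10 called genes lie below every shCtrl library.

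Other immediate early genes fell in part. Of 20 tested, 7 fell and 0 rose (median log2 fold change -0.14). Beside KLF2, KLF6 went from 475, 469 and 455 CPM to 272, 264 and 263 CPM (log2 fold change -0.81, adjusted p = 1.83e-14), and EGR1, a zinc finger factor induced by serum, went from 152, 155 and 159 CPM to 95.4, 111 and 94.4 CPM (-0.63). MYC and KLF4 did not pass the test. MYC had 9.65, 10.2 and 12.3 CPM in shCtrl and 9.5, 11.7 and 10.8 CPM with shPDK1#2, and the log2 fold change of KLF4 was -0.17 (adjusted p = 0.262). Among 18 feedback genes of the MAP kinase pathway, 7 fell and 3 rose, with a median of -0.10; without shCtrl replicate 3, 4 fell. DUSP8, a phosphatase that acts on the stress kinases JNK and p38, went from 17, 19.1 and 15.5 CPM to 7.36, 7.28 and 7.08 CPM (log2 fold change -1.25, adjusted p = 7.69e-08). DUSP1 had a log2 fold change of -0.88. ETV4 (0.23) and DUSP4 (0.19), both induced by ERK signaling, rose. Of 14 genes of NFAT and calcium signaling, 6 fell and 0 rose (median -0.10). NFATC2, a transcription factor that calcineurin moves to the nucleus, went from 51.9, 56 and 58.4 CPM to 23.7, 19.6 and 20.5 CPM (log2 fold change -1.38, adjusted p = 3.52e-12). RCAN1, an inhibitor of calcineurin and a target of NFAT, had -0.68, and 11.1% of its sequence is shared with other genes.

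Cytokines and NF-kB genes also fell. NF-kB is the factor through which inflammatory signals induce cytokines and its own inhibitors. Of 18 tested members 10 fell and 0 rose, with a median log2 fold change of -0.44. IL11, a cytokine of the IL-6 family that acts on bone and stroma, went from 79.2, 75.1 and 75.3 CPM to 27.5, 28.7 and 27.5 CPM (log2 fold change -1.46, standard error 0.0682, adjusted p = 1.54e-14). CXCL8, the neutrophil chemokine whose window is printed above, went from 12.7, 13.3 and 19.6 CPM to 6.43, 6.47 and 6.87 CPM (-1.19). CXCL2, a related chemokine, had only 11 to 17 counts per shCtrl library and 2 to 7 with shPDK1#2, a ratio of 0.311 (95% exact interval of the summed counts 0.156 to 0.585, counting error only); its call was lost with DESeq2 and without any of the shCtrl libraries or without shPDK1#2 replicate 2 or 3, with values from -1.33 to -1.79. It shares 7.56% of its sequence, mostly with CXCL3.

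Interferon-stimulated genes, which respond to viral RNA and interferon, had 9 falls and 0 rises of 23 tested (median log2 fold change -0.27). The falls numbered 5 without shCtrl replicate 1 and 5 without shPDK1#2 replicate 2. OASL had 6.47, 9.54 and 8.2 CPM in shCtrl and 2.7, 2.53 and 2.08 CPM with shPDK1#2 (log2 fold change -1.72, adjusted p = 1.21e-06). IFIT2 (-1.29) and IFIT1 (-1.25), which bind foreign RNA, had at most 44 and 31 counts in a shCtrl library. IFIT1 lost its call without shCtrl replicate 1 (-1.05) or shPDK1#2 replicate 3 (-1.08), and IFIT2 without shCtrl replicate 2 (-1.04).

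Among genes that act downstream of p53 and in cell death more members fell than rose, although most did not pass the test. Of 18 tested p53 targets and cell cycle inhibitors, 6 fell and 1 rose (median log2 fold change -0.23). CDKN1A, the inhibitor p21 of cyclin-dependent kinases, went from 274, 270 and 262 CPM to 132, 131 and 125 CPM, a change of -1.06 on the log2 scale (standard error 0.0445, adjusted p = 2.9e-15). BBC3 and PMAIP1, the proapoptotic proteins PUMA and NOXA, had -0.76 and -0.71. SESN1 rose by 0.62. Among 18 apoptosis regulators 8 fell and 0 rose (median -0.24). The falls included survival proteins: MCL1, which blocks apoptosis at the mitochondrion, went from 1704, 1643 and 1633 CPM to 1131, 1121 and 1170 CPM (-0.54), and BIRC3, an inhibitor of apoptosis, had -0.67.

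The cell cycle lists split. Of 28 genes of G1/S and DNA replication 14 rose and 2 fell (median log2 fold change 0.18), while of 26 genes of G2/M and mitosis 0 rose and 7 fell (median -0.04). MCM2, a subunit of the replicative helicase, went from 143, 151 and 143 CPM to 217, 223 and 215 CPM (log2 fold change 0.58, adjusted p = 2.94e-09) with antisense genes over 23.6% of its exons. GINS2 (0.52) and MCM5 (0.45) of the same machinery rose as well. CCND1, cyclin D1, went the other way, from 1072, 1054 and 1031 CPM to 740, 738 and 742 CPM (-0.51, adjusted p = 4.09e-12). RRM2, of ribonucleotide reductase, fell by 0.22 but lost its call without shPDK1#2 replicate 2 (-0.16). UBE2C and CCNA2, which act in mitosis, had -0.34 and -0.27.

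All 26 tested cytosolic ribosomal protein genes of the list rose and their groups did not overlap, with a median log2 fold change of 0.29, and 26 rose in every alternative fit. RPL32 went from 471, 478 and 481 CPM to 640, 656 and 628 CPM (log2 fold change 0.43, adjusted p = 7.95e-10), and RPS3 from 1152, 1160 and 1234 CPM to 1520, 1569 and 1536 CPM (0.38). Counted after the list was seen, 80 of all 82 tested ribosomal protein genes rose and 0 fell, and their share of all counts was 5.71% to 5.93% in shCtrl libraries and 7.01% to 7.18% in shPDK1#2 libraries. Among the 2920 genes with the shortest transcripts, of 207 to 2117 bases, the median log2 fold change was 0.06. The part of transcript length in the rise of ribosomal protein genes was not tested. Of 22 ribosome biogenesis genes 11 rose and 0 fell (median 0.16), and 7 rose without shCtrl replicate 1 or 3 or without shPDK1#2 replicate 1 or 3. NPM1, the nucleolar protein nucleophosmin, went from 1113, 1127 and 1164 CPM to 1567, 1473 and 1505 CPM (0.42), and 5.26% of its sequence is shared, mostly with a pseudogene.

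Transcripts of glucose metabolism shifted by small steps, with no metabolite measured in these libraries. Of 23 glycolysis genes 12 rose and 1 fell, with a median log2 fold change of 0.10. ALDOC, an aldolase, went from 12.9, 16.9 and 18.5 CPM to 23.7, 25.4 and 23.6 CPM (log2 fold change 0.59), and GPI, which interconverts glucose and fructose phosphates, from 309, 295 and 320 CPM to 364, 390 and 377 CPM (0.29). The single fall of the list was PFKFB3, which makes the activator of phosphofructokinase, from 329, 316 and 334 CPM to 247, 245 and 257 CPM (-0.39, adjusted p = 3.19e-08). BPGM, described among the largest falls, is not a member of this list. LDHA, which turns pyruvate into lactate, had 1264, 1240 and 1260 CPM in shCtrl and 1268, 1211 and 1312 CPM with shPDK1#2, and did not pass the test (adjusted p = 0.867). Of 14 genes of the pentose phosphate and serine pathways 6 rose and 0 fell (median 0.14), among them SHMT1 (0.43) and MTHFD1 (0.41) of folate metabolism.

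In mitochondria, 18 of 44 nuclear genes of oxidative phosphorylation rose and 0 fell (median log2 fold change 0.12). COX6B1, a subunit of cytochrome c oxidase, went from 67.3, 70.6 and 71.2 CPM to 81.6, 93.5 and 84.5 CPM (0.31), and ATP5PB, of the ATP synthase, had 0.28. The 13 genes of the mitochondrial genome had 1 rise and 2 falls (median -0.05). Of these, MT-CYB fell by 0.19 (adjusted p = 0.000299), and the calls of MT-ND3 and MT-ATP8 were lost in 3 and 4 alternatives, DESeq2 among them. All counts of the mitochondrial genome made up 3.59% to 3.89% of shCtrl libraries and 3.65% to 3.82% of shPDK1#2 libraries. Of 20 TCA cycle genes 7 rose and 3 fell (median 0.09), and 4 rose without shCtrl replicate 2 or 3 or shPDK1#2 replicate 2. SDHD, of succinate dehydrogenase, rose by 0.53, while OGDH, of the oxoglutarate dehydrogenase complex, fell from 161, 156 and 161 CPM to 126, 128 and 111 CPM (-0.39).

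Hypoxia genes rose more often than they fell, 10 against 1 of 20 tested (median log2 fold change 0.19), with 6 rises without shPDK1#2 replicate 3. DDIT4, an inhibitor of mTORC1 induced by hypoxia and stress, went from 118, 115 and 115 CPM to 277, 267 and 287 CPM (log2 fold change 1.25, standard error 0.0448, adjusted p = 9.2e-17). EGLN3, a prolyl hydroxylase that marks HIF for degradation, went from 37.4, 38.5 and 42.5 CPM to 73.1, 71.7 and 69 CPM (0.86), and ADM, the peptide adrenomedullin, had 0.70. NDRG1 fell by 0.21. PDK1, itself a hypoxia target, is not a member of this list. Of 20 genes of the unfolded protein response 11 rose and 1 fell (median 0.22), CALR rising by 0.36 and EDEM1 falling by 0.45. The integrated stress response, in which ATF4 drives amino acid genes, was mixed, with 8 rises and 4 falls of 25 (median 0.02). STC2, a secreted glycoprotein, rose from 84.7, 86 and 86.7 CPM to 126, 139 and 131 CPM (0.62). GDF15, a stress cytokine, fell from 9.65, 9.74 and 10.7 CPM to 2.14, 4.55 and 4.27 CPM (-1.46), and PPP1R15A, which reverses the phosphorylation of eIF2 alpha, fell by 0.91.

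Lipid, redox and lysosome genes were mixed. Of 23 sterol synthesis genes 9 rose and 3 fell (median log2 fold change 0.12), and 1 fell without shPDK1#2 replicate 3. DHCR7, the last enzyme of a branch of cholesterol synthesis, rose from 160, 148 and 162 CPM to 214, 229 and 228 CPM (0.51). Of 13 fatty acid genes 4 rose and 4 fell (median 0.05), and of 18 NRF2 and antioxidant genes 5 rose and 4 fell (median 0.05); these counts were down to 1 or 2 in some fits without a library. Of 24 lysosome and autophagy genes 9 fell and 2 rose (median -0.12), with 5 falls without shPDK1#2 replicate 1. CTSB, the protease cathepsin B, fell from 788, 738 and 780 CPM to 477, 496 and 497 CPM (-0.65, adjusted p = 3.69e-13), and SQSTM1, the autophagy receptor p62, fell by 0.45.

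Matrix genes changed in both directions. Of 27 tested, 9 rose and 10 fell, and the median log2 fold change was -0.00. Beside COL3A1, POSTN, the matrix protein periostin, had 3, 0 and 3 counts in the shCtrl libraries and 73, 54 and 75 with shPDK1#2. Its ratio of summed counts was 29.9 (95% exact interval 13.5 to 82.6, counting error only). With so few shCtrl counts it passed the filter on low counts only through hairpin libraries, so a fall could not have been seen. LOX, which crosslinks collagen, went from 123, 135 and 135 CPM to 218, 205 and 230 CPM (log2 fold change 0.74, adjusted p = 1.8e-11). MMP14, a membrane-bound collagenase, went the other way, from 982, 947 and 985 CPM to 623, 620 and 629 CPM (-0.64), as did THBS2 (-0.66), of whose exons 31.2% lie opposite other genes. Of 18 genes of the osteoblast lineage 13 were tested, of which 5 rose and 1 fell (median 0.10). The bone genes IBSP, DMP1 and SOST had 0 counts in all 6 libraries, SP7 at most 1 and BGLAP at most 6. SPP1, osteopontin, rose from 1378, 1489 and 1478 CPM to 2398, 2391 and 2388 CPM (0.72, adjusted p = 1.2e-14), and COL1A1, the main collagen of bone, from 921, 898 and 917 CPM to 1278, 1388 and 1243 CPM (0.51). TNFRSF11B, osteoprotegerin, which keeps RANKL from osteoclast precursors, fell from 137, 154 and 144 CPM to 68.9, 60.6 and 61.2 CPM (-1.19).

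Since collagen III and periostin also mark fibroblasts, the marker lists of other cell types were read beside them. In the fibroblast list 5 of 7 genes were tested, 2 rose and 1 fell, and their summed level was 446 to 472 CPM in shCtrl and 405 to 424 CPM with shPDK1#2. Both rises had few counts and, like POSTN, passed the filter on low counts only through hairpin libraries. COL1A2 had 4, 3 and 1 counts in shCtrl and 16, 13 and 16 with shPDK1#2, a ratio of 5 (95% exact interval 2.33 to 12.3), and LUM, the proteoglycan lumican, 3, 4 and 4 against 24, 18 and 14 counts, a ratio of 4.53 (2.35 to 9.59). Of the defining markers, THY1 had at most 1 count in any of the 6 libraries and DCN 1 to 7 in shCtrl and 0 to 3 with shPDK1#2. In the pericyte list 1 of 5 genes rose and 1 fell: PDGFRB, a receptor of stromal cells, went from 3.18, 2.21 and 2.86 CPM to 14.8, 14.3 and 12.7 CPM (log2 fold change 2.34), and CSPG4 fell by 0.80, so that the sum fell from 404 to 415 CPM to 233 to 276 CPM. Of epithelial markers KRT18 (0.43) and KRT8 (0.38) rose, the latter with overlapping groups and without a call when shCtrl replicate 1 or shPDK1#2 replicate 2 was left out. Myeloid and osteoclast lists had 1 fall each, CD68 (-0.83), which shares 70.3% of its sequence with an overlapping gene, and MMP9 (-1.19); PTPRC had at most 2 counts. Endothelial markers summed to 2.18 to 3.34 CPM over the 6 libraries. For HEK293T, the line that made the virus, 1 of 4 tested markers fell and 0 rose, with a sum of 521 to 536 CPM in shCtrl and 478 to 512 CPM with shPDK1#2, and NEFL and NEFM had at most 3 counts in a library. The part of other cells in the matrix result was not tested, and in bulk RNA fewer cells of a kind and less RNA per cell cannot be told apart.

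Stem cell factors, the subject of the study, had 0 rises and 4 falls among 14 tested genes (median log2 fold change -0.16). ABCG1, a sterol transporter, went from 17.1, 17.9 and 16.9 CPM to 8.19, 10.8 and 10.3 CPM (-0.83, adjusted p = 6.06e-05), and NT5E, the surface enzyme CD73, fell by 0.37. SOX2, a pluripotency factor, had 42.4, 40 and 41.4 CPM in shCtrl and 44.6, 44.2 and 36.7 CPM with shPDK1#2, with overlapping groups (log2 fold change 0.02, adjusted p = 0.878). POU5F1 and NANOG had too few counts to be tested, with at most 10 and 0 counts in a library. Of the other genes that the study named for these libraries, CCN3, a matricellular protein, went from 41.7, 45.9 and 44.7 CPM to 15.7, 13.6 and 15.8 CPM (-1.55), C11orf96 from 9.21, 11.6 and 12.7 CPM to 4.28, 4.45 and 4.9 CPM (-1.30) and BEAN1 from 6.8, 8.63 and 7.58 CPM to 2.23, 1.31 and 2.81 CPM (-1.85). NIM1K, at 1.75, 1.2 and 1.12 CPM against 0.559, 0.101 and 0.729 CPM, did not pass the test in the fit of 9 libraries (-1.53, adjusted p = 0.0832) but passed it when only the 6 compared libraries were fitted.

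TGF-beta ligands bind receptors that phosphorylate SMAD proteins, and SMAD7 and PMEPA1 are induced to dampen the signal. Of 21 genes of this pathway 5 rose and 12 fell (median log2 fold change -0.18), with 3 rises without shCtrl replicate 1. The ligand TGFB1 rose from 484, 458 and 495 CPM to 559, 594 and 534 CPM (0.23) and the signal carrier SMAD3 by 0.19. The feedback genes moved apart: SMAD7 rose from 59.2, 58.5 and 49.7 CPM to 100, 99.7 and 111 CPM (0.89, adjusted p = 1.56e-10) and PMEPA1 fell from 413, 415 and 409 CPM to 231, 244 and 234 CPM (-0.80, adjusted p = 1.84e-14). The related ligand subunit INHBA is described among the largest falls. Of 26 growth factor genes 8 rose and 10 fell (median -0.18). Besides IGF2 and PDGFRB, IGFBP6, a binding protein that prefers IGF2, fell from 24.7, 22.4 and 21.4 CPM to 8.1, 11.3 and 9.58 CPM (-1.24), and FGF2 by 0.82.

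The Notch and Wnt genes had 6 rises and 10 falls of 26 (median log2 fold change -0.02), with 6 falls without shCtrl replicate 3. JAG1, a Notch ligand, fell from 376, 384 and 376 CPM to 226, 221 and 216 CPM (-0.78, adjusted p = 1.03e-13), while HEY2, a Notch target, rose from 3.84, 3.92 and 3.6 CPM to 9.96, 7.99 and 9.17 CPM (1.25). LRP5, a Wnt coreceptor, rose by 0.45. RNF43, which removes Wnt receptors, had 4 to 7 counts in shCtrl and 22 to 33 with shPDK1#2. Its ratio was 4.92 (95% exact interval 2.82 to 9.19), but 64.4% of its sequence is shared with another gene. Like POSTN, it passed the filter on low counts only through hairpin libraries. Of 21 genes of adhesion and epithelial-mesenchymal transition 2 rose and 11 fell (median -0.12). Integrin subunits led the falls, ITGA2 going from 707, 694 and 692 CPM to 513, 469 and 487 CPM (-0.51) and ITGA5 from 308, 310 and 300 CPM to 211, 222 and 219 CPM (-0.49); the factors TWIST1 (0.41) and SNAI2 (0.37) rose. Targets of YAP and SRF, which respond to cell shape, were split with 5 rises and 4 falls of 20 (median 0.03) and 3 rises without shCtrl replicate 1; VCL, vinculin, rose by 0.36 and CNN2 by 0.71, and TAGLN2 fell by 0.42.

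To ask how genes of sphere growth behaved, lists were taken from the OSC and non-OSC libraries, which share no sample with the hairpin libraries. In OSCs 10.2% of 14288 tested genes were higher and 5.53% lower than in non-OSCs by more than 1 on the log2 scale. Of these, 1407 higher and 716 lower genes were also tested in the hairpin libraries. Among the genes higher in OSCs 34.8% fell and 9.67% rose with shPDK1#2 (median log2 fold change -0.21), and among those lower in OSCs 4.47% fell and 23.3% rose (median 0.20). With a limit of 2 on the log2 scale the medians were -0.31 and 0.16, and with no fold limit -0.12 and 0.11. Over all 14055 genes tested in both tables, 14.6% fell and 12% rose (median 0.01). Several of the largest falls belong to the first list. ATF3 had a log2 fold change of 4.37 between OSCs and non-OSCs, FOSB of 4.92, FOS of 3.61, BPGM of 3.10, CREB5 of 3.13, RGS16 of 2.97 and INHBA of 1.80. COL3A1, the largest rise by the rule above, did not pass the test between OSCs and non-OSCs (-0.38, adjusted p = 0.177). A2M, IGF2 and UNC5C were higher in OSCs (3.86, 2.59 and 2.48) and also rose with shPDK1#2. COL4A6 (0.76), MTUS1 (-0.33) and SLC8A1 (-0.73), also among the 8 largest rises, stayed within the limit of 1 on the log2 scale. With shPDK1#1, which is set against the same shCtrl libraries, the medians of these lists were -0.02 and 0.01.

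**Figure D3:**
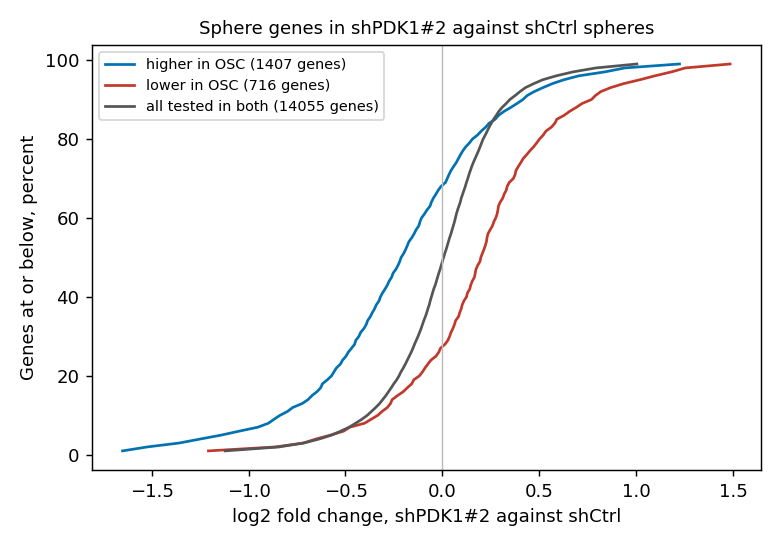
Cumulative percent of genes (vertical axis) at or below each log2 fold change of shPDK1#2 against shCtrl (horizontal axis), from the 1st to the 99th percentile, for 1407 genes higher in OSCs, 716 genes lower in OSCs and all 14055 genes tested in both tables. At the median the curve of genes higher in OSCs lies to the left, at -0.21, and that of genes lower in OSCs to the right, at 0.20; in the upper tail both lie to the right of all genes.

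The hairpins were compared directly, since both target PDK1. PDK1 itself had 29, 27.8 and 27.3 CPM with shPDK1#1, so shPDK1#2 left less of it (log2 difference -0.50, standard error 0.0908, adjusted p = 0.000237). Between the hairpins 945 genes were higher and 1428 lower with shPDK1#2, 6.47% and 9.78% of the tested genes. The 8 largest falls and rises were chosen by their shPDK1#2 values, which favors a difference in the same direction here. Of the 8 falls all 8 were lower with shPDK1#2 than with shPDK1#1, and of the 8 rises 7 were higher, since IGF2 did not differ (0.15, adjusted p = 0.177). ATF3 had 23.6, 19.7 and 24.2 CPM with shPDK1#1, against which shPDK1#2 was lower by a log2 difference of -1.38 (adjusted p = 3.07e-09). BPGM had 55.6, 56 and 57.1 CPM with shPDK1#1 (log2 difference -1.64), and COL3A1 had 17.3, 19.8 and 20.9 CPM (2.15, adjusted p = 2.1e-15). The shPDK1#1 libraries thus lay between the other groups for ATF3 and COL3A1 with no overlap on either side, and below every shCtrl library for BPGM, although BPGM did not pass the test of shPDK1#1 against shCtrl (adjusted p = 0.194).

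Among the lists, 10 of 13 AP-1 and ATF genes were lower with shPDK1#2 than with shPDK1#1 and 0 higher. Of 26 ribosomal protein genes 24 were higher and 0 lower, and of 28 G1/S genes 17 were higher and 1 lower. Some other lists differed in fewer members, as hypoxia genes with 3 of 20 higher and 2 lower. Over all tested genes 6.47% were higher and 9.78% lower. Most genes named below were chosen by their shPDK1#2 values, which favors a difference in the same direction. IL11 had 67.4, 70.2 and 69.4 CPM with shPDK1#1 (log2 difference -1.31), INHBA 113, 113 and 116 CPM (-1.47) and CDKN1A 222, 227 and 215 CPM (-0.77, adjusted p = 1.55e-12). DDIT4 was different: it had 263, 275 and 268 CPM with shPDK1#1, and the hairpins did not differ (0.04, adjusted p = 0.541). STC2 (-0.11, adjusted p = 0.152) and ADM (-0.13, adjusted p = 0.154) also did not pass this test. PFKFB3 was above every shCtrl library with shPDK1#1, at 367, 375 and 368 CPM, and below every one with shPDK1#2 (log2 difference -0.57, adjusted p = 5.86e-11). The depth of knockdown and the sequence of the hairpin cannot be told apart in this comparison.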

How the data were processed

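Total RNA of 15 libraries was read on a NovaSeq instrument from both fragment ends. The authors deposited RSEM 1.3.3 expected counts per gene, not normalized, after trimming (Trimmomatic 0.39), quality control (FastQC 0.12.1) and alignment to GRCh38.p14 (STAR 2.7.11a). RSEM divides a read that fits several transcripts between them, so 6.92% of the values of the hairpin table were not whole and were rounded. The annotation and the use of strand are not given in the sources used here. All 62700 gene IDs were found in GENCODE 44, which gave symbols and coordinates. The OSC and non-OSC libraries are in a table of their own, and only gene lists were carried across.

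The 9 hairpin libraries were fitted together with edgeR 4.0.16 in R 4.3.3 (TMM normalization, factors 0.993 to 1.01, filterByExpr by group, quasi-likelihood test, Benjamini-Hochberg over 14597 genes, threshold 0.05). CPM use the TMM-normalized library sizes, and log2 fold changes come from the fit. The biological coefficient of variation was 0.0482. On counts simulated for this comparison over 14256 genes, the test called 98 of 100 genes changed by a factor of 2, 90 of 100 changed by a factor of 1.5 and 7 others. The changed genes were drawn from those above a minimum level in shCtrl, so these rates do not cover genes with few counts. They numbered 200, against 3810 genes called in the data. A floor of 3 counts was set per library. Alternatives were DESeq2 1.42.0, library size alone, no filter, a minimum of 10 counts throughout, the 6 compared libraries fitted alone, a replicate block, and each library left out in turn. Shared sequence was measured as stretches of 75 bases found in transcripts of other genes. Plots used Python 3.11.15 with matplotlib 3.10.9.

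Named genes were the PDH list, genes that the study named, the 8 largest rises and 8 largest falls (adjusted p under 0.05, mean of at least 10 CPM, no overlap of groups), and up to 3 called members of each list in each direction. The genes and the 33 pathway and 9 marker lists were chosen with earlier results of these data known. Labels do not say whether same-numbered libraries were paired. The deviations of same-numbered libraries correlated at -0.0322, -0.0522 and -0.0349. Those of differently numbered libraries correlated between -0.000911 and 0.0351, so these values do not settle it. No batch is given in the labels. Some genes that the rule names are not reported here. The depth of 8073103 to 10768811 counts per compared library limits the precision of genes with few counts, and intervals cover counting error only.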

Additional observations from a re-analysis of the deposited data

Results flagged for a closer look

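Effects of the hairpins against the same shCtrl libraries differed in the direct test. With shPDK1#2 set against shPDK1#1, 2373 genes passed an adjusted p of 0.05 in edgeR's quasi-likelihood test. COL3A1 had the largest difference among the 16 genes with the largest rises and falls, a log2 difference of 2.15 (adjusted p = 2.1e-15). BPGM had -1.64 (adjusted p = 2e-13), DNER -1.63 (adjusted p = 4.82e-12), INHBA -1.47 (adjusted p = 9.71e-15) and ATF3 -1.38 (adjusted p = 3.07e-09). These genes were chosen by their shPDK1#2 values and then for their difference between the hairpins, which favors a difference in this direction. All 3 libraries of shPDK1#2 lay beyond all 3 libraries of shPDK1#1 for each of the 5 genes, which this choice also favors. The share of all genes without overlap between the hairpins was not counted.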

How the results depend on the processing

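The number of called genes was 3810 and lay between 3104 (DESeq2) and 4053 (only the 6 compared libraries) in the alternatives that kept every compared library. With the replicate block it was 3944, of which 3754 were shared with the main result. Without one library at a time it lay between 3032 and 3341, fewer samples being the difference. DESeq2 called 3102 of the 3810 genes. Changes of more than 1 were 141 rises and 164 falls, and fell to 56 and 104 when at least 10 counts were asked of every library, which leaves fewer genes. PDK1 kept its call with a log2 fold change from -1.14 to -1.26. The share of genes lower in OSCs that fell with shPDK1#2 was 4.47%, and 9.52% when the lists needed a fold change over 2 on the log2 scale, which left 84 genes; the cause was not tested. The medians of the lists higher and lower in OSCs were -0.21 and 0.20, -0.31 and 0.16 at this stricter limit, and -0.12 and 0.11 with no fold limit. Of the 168 named genes with a call, 33 lost it in at least 1 alternative, and of 2153 values computed 0 reversed. Of 792 list counts, 44 moved by more than 1.5 times; those that bear on a count in the text stand beside it. For genes with few counts this depth shows only large differences.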
